A study of Mus musculus with 6 samples.

Results

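Solute carriers are membrane proteins that move nutrients, bile acids, metals and metabolites across the plasma membrane and the membranes of organelles. In the liver they set what hepatocytes take up from portal blood and what they release, and a large family of them works in the inner membrane of mitochondria. The 83 genes described here are the protein-coding rows of the deposited table whose symbol begins with Slc or Slco followed by a digit, leaving out Slc7a11. They are 83 of 3201 listed genes. They were grouped by substrate class into 11 amino acid carriers, 9 sugar carriers, 14 bile acid and organic ion carriers, 7 metal carriers, 15 mitochondrial carriers and 27 others. Slc9a3r1, which matched by name, encodes a scaffold protein that binds transporters and is not itself a carrier.

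Livers of male mice on a C57BL/6 background were compared after 1 h of hepatic ischemia and 6 h of reperfusion. The controls carried floxed Fgf18 alleles (Fgf18 f/f, 3 livers, whose labels give the treatment "IR" in place of a genotype, so that the genotype comes from the study's methods). The knockouts were floxed mice that also carried a Cre driven by the GFAP promoter, which is meant to delete Fgf18 in hepatic stellate cells (Fgf18 △HSC, 3 livers). All 6 livers underwent the same surgery, so no value here compares injured with uninjured liver. RNA came from whole liver tissue, and the ages of the mice were not given in the sources used here. Fgf18 itself was not analysed here, and it could not serve as a check on the genotype labels.

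The table listed only genes that the authors had already picked because they differed between the 2 genotypes. An adjusted p-value here is therefore no independent evidence of a difference, and counts of called genes, including those of classes, gene lists and markers, are to be read against the shares over all listed genes. By the same naming rule GENCODE M21 annotates 384 mouse genes, of which 21.6% were listed, against 11.1% of its 22028 protein-coding genes. Genes that were not listed have no values here, so the genes expressed in these livers could not serve as the base. No enrichment can be read from these shares. The value of a gene in a liver was read as TPM, a unit that corrects reads for gene length and library size, although the table does not name its unit. A single read on 1 kb of transcript was worth between 0.0374 and 0.0655 TPM, depending on the liver. Of the 79 genes whose reads could be recovered as whole numbers, 14 had fewer than 10 reads in at least 1 liver and 1 had fewer than 10 in every liver.

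Most of the listed solute carrier genes were lower in the Fgf18 △HSC livers, and the fall included the main hepatocyte carriers for bile acids, glutamine, glucose and fatty acids. In the comparison with limma on log2(TPM + 0.1), genes were called when the p-value, adjusted over the whole table by Benjamini and Hochberg's method, was under 0.05 and the log2 fold change was beyond 1 in either direction. By this rule 65 of the 83 genes were called (78.3%), against a background of 71.7% over all listed genes. The direction was 23 higher (27.7%, background 41.6%) and 42 lower (50.6%, background 30.0%). The median log2 fold change of the 83 genes was -1.0, and that of all listed genes was 0.88. The livers of the 2 genotypes did not overlap for any of the 83 genes, which was also so for 96.3% of all listed genes. The adjusted p was under 0.05 for all 83, as for 97.3% of listed genes, and the 18 genes not called had missed the fold limit.

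**Figure D1:**
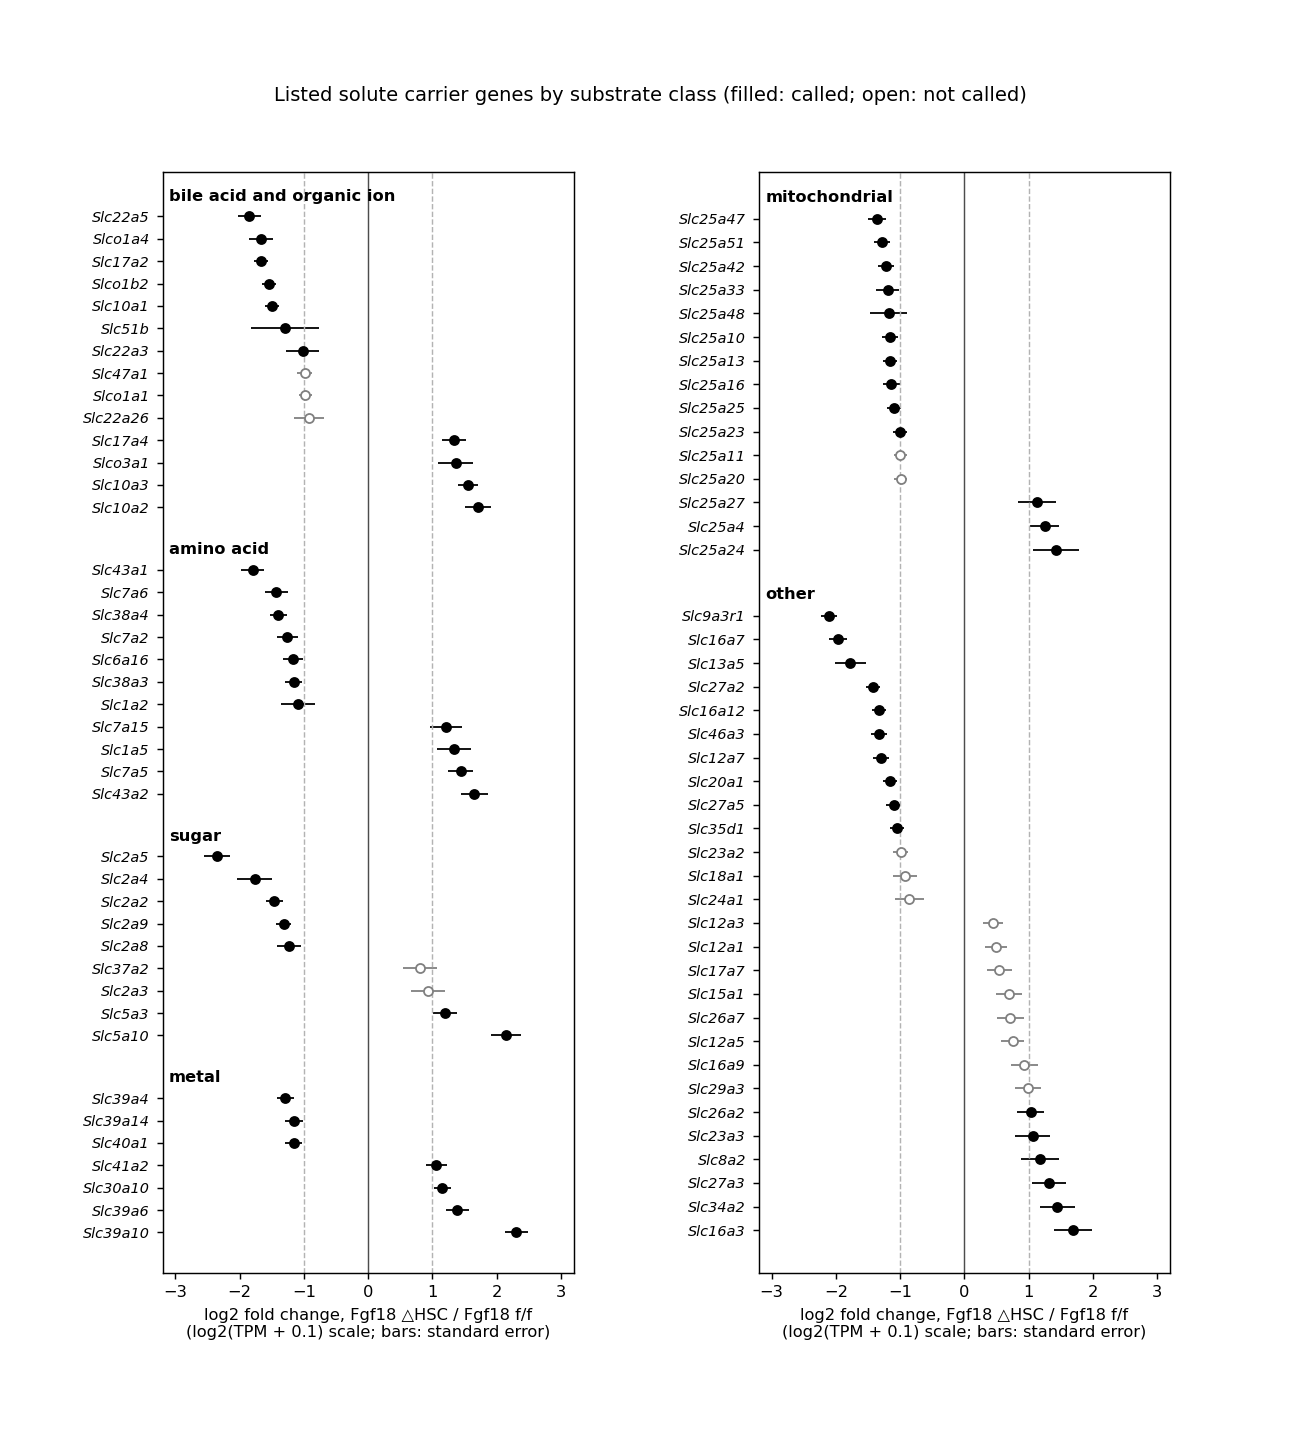
Log2 fold change (Fgf18 △HSC over Fgf18 f/f, log2(TPM + 0.1) scale, horizontal axis) of each of the 83 genes by substrate class, with bars for the standard error, filled points for called genes, open points for genes not called, and dashed lines at the fold limit. Each class holds genes on both sides, and 10 of the 15 mitochondrial carriers lie past the limit on the lower side.

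The direction of a gene followed its level. Of the 8 genes with a mean above 100 TPM over the 6 livers, 8 had lower values in the △HSC livers, and of the 21 genes between 10 and 100 TPM, 19 had lower values. Of the 27 genes at or under 1 TPM, 21 had higher values. The same order held over all listed genes, where 92 of 106 genes above 100 TPM had lower values and 1529 of 1777 genes at or under 1 TPM had higher values. Unless a level is named, the shares over all listed genes set beside classes and gene lists were not matched for level. The split between higher and lower depended on the pseudocount and on the scaling. With a pseudocount of 1 in place of 0.1, which shrinks the changes of low genes, 6 genes were called higher and 32 lower. Over all listed genes the counts were then 266 and 566. When the livers were rescaled by the median ratio over the listed genes, the median log2 fold change of all listed genes moved from 0.88 to 0.19. The calls became 2 higher and 50 lower, against 281 and 1115 of all listed genes. The factors were 0.57 to 0.65 for f/f livers and 1.12 to 1.36 for △HSC livers. They came only from genes selected for differing between the genotypes, so they take up part of that difference. Such a scaling cannot show which scale is right. No member changed sign under that scaling, and of the 23 genes called higher only Slc39a10 and Slc5a10 were still called.

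**Figure D2:**
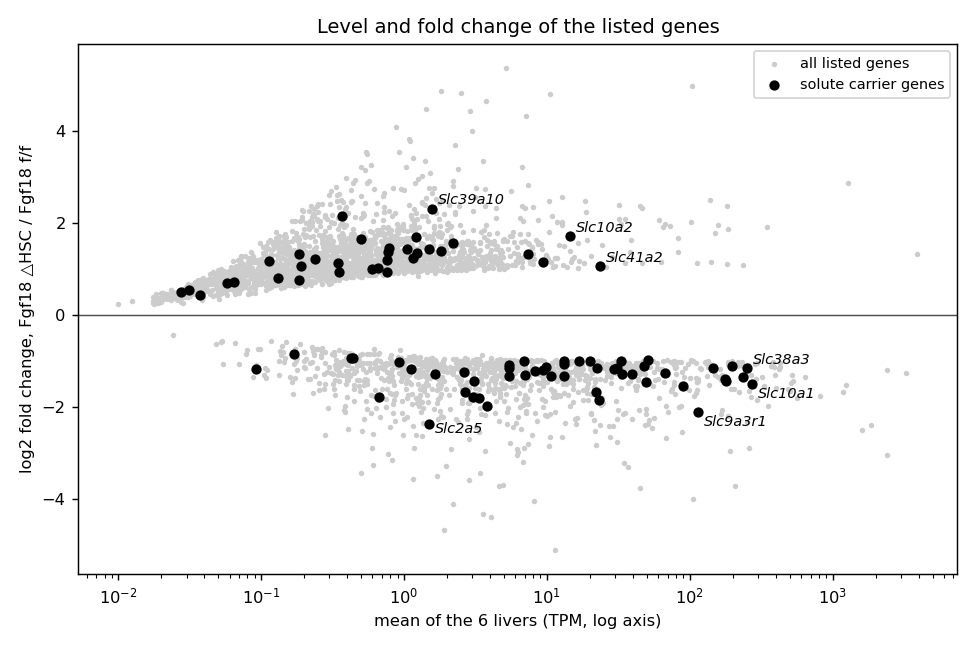
Mean over the 6 livers (TPM, log axis) against log2 fold change (Fgf18 △HSC over Fgf18 f/f) for all 3201 listed genes (grey) and the 83 solute carrier genes (black). The 8 black points above 100 TPM all lie below 0, while 21 of the 27 at or under 1 TPM lie above it.

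Among the bile acid and organic ion carriers 7 of 14 genes fell, 4 rose and 3 were not called, with a median log2 fold change of -1.0. Over all listed genes 30.0% were called lower and 41.6% higher. The median of the mean levels in this class was 10.9 TPM. Of the 361 listed genes above 10 and at most 100 TPM, 287 were called lower and 54 higher. Slc10a1 encodes the sodium-dependent carrier that brings conjugated bile acids into hepatocytes, and it was the most abundant member of the class. Its level was 416, 391 and 403 TPM in f/f livers and 157, 139 and 135 TPM in △HSC livers. The groups stood far apart, with means of 403 ± 12.4 and 144 ± 11.9 TPM (SD, n = 3), and the log2 fold change was -1.49 (SE 0.11, limma adjusted p = 2.08e-05). Slc10a2 encodes the related carrier that takes up bile acids at the apical side of ileal and bile duct cells. It moved the other way, from 5.92, 5.55 and 8.87 TPM to 20.4, 26.5 and 19.3 TPM, with every △HSC liver above every f/f liver. Its log2 fold change was 1.71 (SE 0.20, limma adjusted p = 0.000155).

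The promoter windows of these 2 genes are shown because the pair belongs to 1 family and moved in opposite directions. Each window holds the 250 bases before the annotated start, from RefSeq on GRCm38.p6, on the minus strand and written 5′ to 3′. The Slc10a1 window lies at chr12:80968706-80968955 and the Slc10a2 window at chr8:5105288-5105537. Capitals mark a match to an HNF1-type motif, searched on either strand, which begins 221 bases before the start of Slc10a2.
Slc10a1: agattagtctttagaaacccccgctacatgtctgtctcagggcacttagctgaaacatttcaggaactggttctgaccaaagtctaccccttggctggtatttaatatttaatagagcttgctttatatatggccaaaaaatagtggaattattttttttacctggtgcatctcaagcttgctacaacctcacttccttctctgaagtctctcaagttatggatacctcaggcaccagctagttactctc
Slc10a2: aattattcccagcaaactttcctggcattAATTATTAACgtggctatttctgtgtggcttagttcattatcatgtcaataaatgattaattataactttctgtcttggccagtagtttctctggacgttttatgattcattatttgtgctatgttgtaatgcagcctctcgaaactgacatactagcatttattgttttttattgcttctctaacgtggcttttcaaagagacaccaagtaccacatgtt
The Slc10a1 window held none of the 4 motifs searched. Another Slc10a1 window, 626 bases from the GENCODE start and not printed, held none either. None of this says whether a factor binds there.

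Sodium-independent uptake of bile acids and other organic anions by hepatocytes is mainly the work of the Slco family. Slco1b2 was at 128, 132 and 142 TPM in f/f livers and 43.5, 50.9 and 43.4 TPM in △HSC livers, without overlap and with a log2 fold change of -1.54 (SE 0.11, limma adjusted p = 2.20e-05). Slco1a4 also fell, from 3.28, 4.07 and 4.93 TPM to 1.33, 1.11 and 1.17 TPM (log2 fold change -1.67, SE 0.18). Slco1a1 was at 64.2, 67.1 and 70.8 and at 34.4, 36.6 and 31.7 TPM, and with a log2 fold change of -0.98 (SE 0.11) it was not called. The 3 genes lie in 1 cluster on chromosome 6, with 118793 bases between Slco1b2 and Slco1a4 and 51082 between Slco1a4 and Slco1a1. Closely related copies in such clusters can share reads, and how the counting treated reads with several matches was not given in the sources used here. Slco3a1, a widely expressed family member, rose from 0.278, 0.376 and 0.498 TPM to 1.12, 0.834 and 1.51 TPM.

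Carriers for carnitine and organic cations were lower as well. Slc22a5, which imports carnitine for fatty acid oxidation, was at 42.1, 38.2 and 29.4 TPM in f/f livers and 9.32, 12.3 and 8.61 TPM in △HSC livers. That was the largest fall of the class (log2 fold change -1.85, SE 0.18, limma adjusted p = 7.08e-05). Slc22a3, an organic cation carrier, was at 1.23, 1.19 and 1.32 TPM and 0.454, 0.860 and 0.448 TPM, and its log2 fold change of -1.02 (SE 0.25) lay at the fold limit. The call was lost without f/f replicate 3 (-0.98), △HSC replicate 1 (-0.89) or △HSC replicate 3 (-0.88). Slc47a1, which extrudes organic cations, was not called at 21.7, 21 and 24.8 TPM against 11.9, 11.2 and 10.7 TPM, and neither was Slc22a26, with a log2 fold change of -0.92 (SE 0.23).

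Slc51b encodes the beta subunit of the basolateral organic solute transporter, which exports bile acids. Its level was 3.42, 1.96 and 1.49 TPM in f/f livers and 1.29, 1.38 and 0.285 TPM in △HSC livers, resting on between 4 and 65 reads a liver. Although no △HSC liver exceeded the lowest f/f liver, the 3 f/f livers spread over more than the gap between the groups. The log2 fold change was -1.29 (SE 0.53, limma adjusted p = 0.0427), and the call was lost without f/f replicate 1 (adjusted p = 0.134), f/f replicate 2 (adjusted p = 0.0673) or △HSC replicate 3 (adjusted p = 0.0974). Among the other genes of the class, the neighbours Slc17a2 and Slc17a4 on chromosome 13, with 70709 bases between them, moved apart. Slc17a2 fell from 33.7, 35.3 and 32 TPM to 11.3, 10.3 and 10.1 TPM (log2 fold change -1.66), and Slc17a4 rose from 4.56, 4.99 and 3.09 TPM to 11.6, 10.4 and 9.69 TPM (log2 fold change 1.33). Both belong to the family of phosphate and organic anion carriers. Slc10a3, a family member without an established substrate, rose from 1.13, 0.954 and 1.13 TPM to 3.05, 3.62 and 3.32 TPM.

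**Figure D3:**
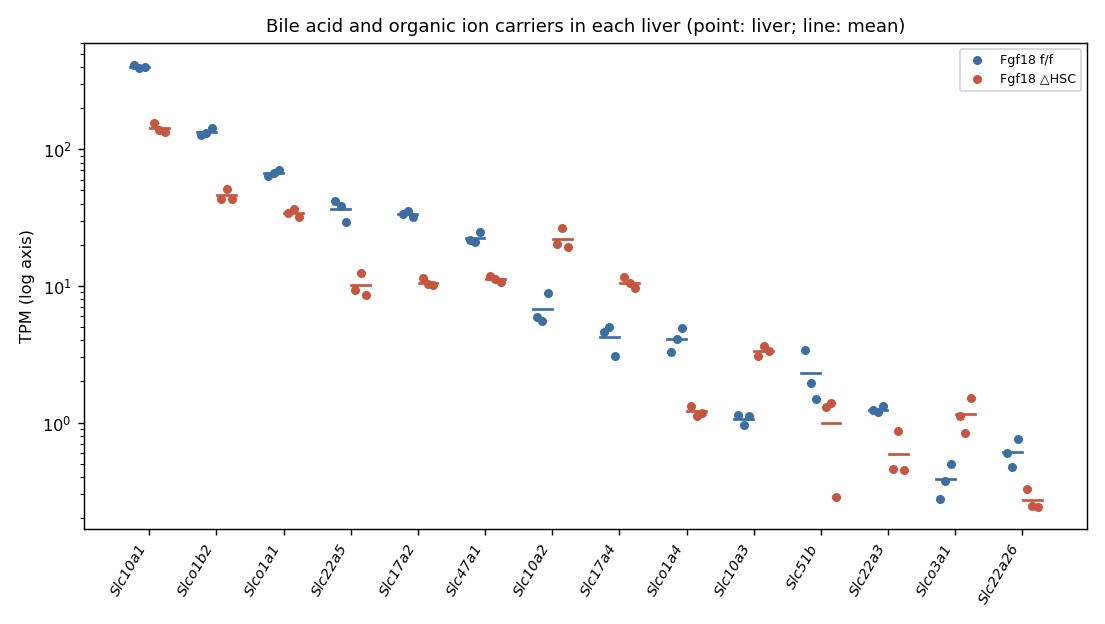
TPM (log axis) of the 14 bile acid and organic ion carriers in each liver, with 1 point a liver and a line at the mean of each genotype. The groups are apart for every gene, with Slc10a2, Slc17a4, Slc10a3 and Slco3a1 the 4 that are higher in the Fgf18 △HSC livers, and Slc51b has the widest spread.

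Other genes of bile acid handling were looked up from a list of 17, of which 5 were listed. Nr0b2, which encodes the repressor SHP induced by bile acids, rose from 1.19, 1.82 and 2.21 TPM to 16.8, 8.56 and 13.4 TPM (log2 fold change 2.81, SE 0.29). Cyp7a1, the rate-limiting enzyme of bile acid synthesis, fell from 13, 11.2 and 20.1 TPM to 5.74, 4.09 and 5.96 TPM (log2 fold change -1.44, SE 0.24). The exporters Abcc3 and Abcg2, of the ATP-binding cassette family, fell with log2 fold changes of -1.20 and -1.30, and Abcb1b was not called at 0.88. Thus 1 of the 5 was called higher and 3 lower, against 41.6% and 30.0% of all listed genes, or 71.7% in either direction.

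Among the amino acid carriers 7 of 11 fell and 4 rose, so that all 11 were called, against 71.7% of all listed genes (30.0% lower, 41.6% higher). The abundant members were all lower. Slc38a3, which carries glutamine in exchange for protons, was at 349, 338 and 347 TPM in f/f livers and 145, 184 and 138 TPM in △HSC livers (log2 fold change -1.16, SE 0.13, limma adjusted p = 0.000118). Slc38a4, a sodium-coupled carrier of neutral amino acids, went from 248, 246 and 272 TPM to 92.3, 116 and 84.7 TPM (log2 fold change -1.40). In each of these genes, and in Slc7a2, the △HSC replicate 2 liver was the highest of its group. Slc7a2, a carrier of arginine, lysine and ornithine, went from 95.1, 97.5 and 90.8 TPM to 36.4, 51.6 and 32.7 TPM (log2 fold change -1.26).

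Carriers of large neutral amino acids moved in both directions. Slc43a1 fell from 5.53, 5.67 and 4.52 TPM to 1.29, 1.77 and 1.28 TPM (log2 fold change -1.79, SE 0.18), and Slc7a6, an exchanger of cationic and neutral amino acids, fell from 4.71, 4.95 and 4.05 TPM to 1.32, 1.93 and 1.68 TPM (log2 fold change -1.43). Slc7a5, the light chain of the leucine-preferring exchanger of growing cells, rose from 0.907, 0.787 and 0.584 TPM to 1.96, 2.19 and 2.48 TPM (log2 fold change 1.44, SE 0.20, limma adjusted p = 0.000325). Slc1a5, a glutamine carrier common in proliferating cells, rose from 0.698, 0.473 and 0.772 TPM to 1.83, 1.29 and 2.3 TPM (log2 fold change 1.34). No liver held more than 2.48 TPM of any amino acid carrier that rose, and no liver held less than 84.7 TPM of Slc38a3 or Slc38a4. The remaining members were chosen for mention after their values were seen: Slc1a2, a glutamate carrier, fell by 1.09 on the log2 scale, Slc43a2 rose by 1.66, Slc7a15 rose by 1.21, and Slc6a16 was called lower on 1 read in each △HSC liver against 9 to 15 in the f/f livers. The call of Slc1a2 was lost without f/f replicate 3 (-0.97), △HSC replicate 1 (-0.97) or △HSC replicate 3 (-0.92).

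From a list of 20 enzymes and regulators of amino acid metabolism, 4 genes were listed and all were called, where 71.7% of all listed genes were. The calls were 1 higher and 3 lower, against 41.6% and 30.0% of all listed genes. The median of the 4 mean levels was 233 TPM, and 88 of the 106 listed genes above 100 TPM were called lower. Among the 4 genes Glul, which makes glutamine, and Tdo2, which opens the degradation of tryptophan, fell with log2 fold changes of -1.28 and -1.02. Psat1, of serine synthesis, rose by 1.35 on the log2 scale.

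Among the sugar carriers 5 of 9 fell, 2 rose and 2 were not called (all listed genes: 30.0% lower, 41.6% higher). Slc2a2, the glucose carrier of hepatocytes, was at 73, 74.3 and 70.7 TPM in f/f livers and 31.1, 25 and 23.7 TPM in △HSC livers, without overlap (log2 fold change -1.46, SE 0.13, limma adjusted p = 4.43e-05). The largest fall among all 83 genes on the log2(TPM + 0.1) scale was that of Slc2a5, the fructose carrier, from 2.39, 2.67 and 2.66 TPM to 0.567, 0.385 and 0.342 TPM (log2 fold change -2.35, SE 0.20). As a ratio of means its level was 5.97-fold lower, and Slc6a16, with 1 read in each △HSC liver, had a larger ratio. Slc2a4, the insulin-responsive glucose carrier of muscle and fat, fell from 1.3, 1.24 and 0.750 TPM to 0.305, 0.263 and 0.174 TPM (log2 fold change -1.77, and -0.74, not called, with a pseudocount of 1). The urate carrier Slc2a9 had a log2 fold change of -1.31 and the intracellular carrier Slc2a8 one of -1.24, and both were called.

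Of the sugar carriers with higher values, Slc5a3, which takes up myo-inositol, rose from 0.452, 0.436 and 0.371 TPM to 1.2, 1.06 and 1.02 TPM (log2 fold change 1.20). Slc5a10, chosen for mention after its values were seen, rose from 0.111, 0.0380 and 0.0704 TPM to 0.652, 0.747 and 0.577 TPM on 2 to 7 reads in the f/f livers and 27 to 32 in the △HSC livers. Slc2a3, the high-affinity glucose carrier, was not called at 0.479, 0.539 and 0.421 TPM against 1.05, 0.687 and 1.39 TPM (log2 fold change 0.93), nor was Slc37a2 at 0.80. From a list of 14 genes of glucose metabolism, 4 were listed and all fell (30.0% of all listed genes did), with log2 fold changes of -2.18 for Pklr, -1.64 for Pck1, -1.53 for Gys2 and -1.13 for Fbp1. They encode liver pyruvate kinase, an enzyme of gluconeogenesis, liver glycogen synthase and fructose bisphosphatase. The median of the mean levels of these 4 genes was 222 TPM. Of the 106 listed genes above 100 TPM, 88 were called lower and 14 higher.

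Metal carriers were divided more evenly, with 4 of 7 higher and 3 lower, so that all 7 were called, against 71.7% of all listed genes. Of all listed genes 41.6% were called higher and 30.0% lower, a split near that of this class. Slc39a14, an importer of zinc, manganese and iron that is not bound to transferrin, fell from 219.9, 206 and 180.2 TPM to 79.4, 107 and 86.1 TPM (log2 fold change -1.16, SE 0.14, limma adjusted p = 0.000173). Slc39a4, another zinc importer, fell from 52.6, 50.3 and 39.5 TPM to 19.1, 19.3 and 19.4 TPM, with the 3 △HSC livers close together. Slc40a1, which encodes the iron exporter ferroportin, fell from 7.24, 6.95 and 8.23 TPM to 3.28, 3.01 and 3.6 TPM (log2 fold change -1.16).

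Zinc importers also stood among the genes that rose. Slc39a10 had the largest rise of all 83 genes on the log2(TPM + 0.1) scale, from 0.539, 0.427 and 0.419 TPM to 2.34, 2.88 and 2.81 TPM (log2 fold change 2.31, SE 0.18, limma adjusted p = 2.91e-05), and Slc39a6 rose from 1.05, 0.970 and 0.818 TPM to 2.71, 2.25 and 2.99 TPM (log2 fold change 1.39). As a ratio of mean TPM the rise of Slc39a10 was 5.80, under those of Slc5a10 (9.03), Slc12a1 (9.27) and Slc17a7 (10.2), which rested on 0 to 7 reads in each f/f liver. Slc30a10, which exports manganese, rose from 6.0, 6.37 and 5.12 TPM to 13.9, 12.6 and 12.7 TPM (log2 fold change 1.16). Slc41a2, a magnesium carrier and the most abundant of the genes that rose, went from 14.1, 14.2 and 17.1 TPM to 28.8, 39.6 and 27.5 TPM. Its log2 fold change of 1.06 became 0.89, under the fold limit, without △HSC replicate 2. Slc40a1 and Slc39a10 lie on chromosome 1 with 881020 bases between them and moved in opposite directions.

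The list of 18 other genes of metal handling had 6 listed members, of which 4 were called lower and 1 higher, against 30.0% and 41.6% of all listed genes. The median of the mean levels of the 6 was 158 TPM. Above 100 TPM, 88 of the 106 listed genes were called lower and 14 higher. Hamp, which encodes hepcidin, the hormone that brings about degradation of ferroportin, was at 2812, 2329 and 2994 TPM in f/f livers and 359, 562 and 551 TPM in △HSC livers (log2 fold change -2.49, SE 0.20). Its copy Hamp2 was at 42.7, 38.4 and 35.4 TPM and 5.95, 5.05 and 5.29 TPM, and the 2 genes are alike enough that reads could be shared between them. Lcn2, which binds bacterial siderophores, and Hpx, which binds heme, fell with log2 fold changes of -1.84 and -1.25. Steap1 rose by 1.17, and Bmp6, an inducer of hepcidin, was not called at 0.95.

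Mitochondrial carriers, the Slc25 family, were mostly lower, with 10 of 15 genes called lower, 3 called higher and 2 not called. Over all listed genes 30.0% were called lower and 41.6% higher, but these shares were not matched for level. The median of the mean levels in this class was 13.2 TPM. Of the 361 listed genes above 10 and at most 100 TPM, 287 were called lower and 54 higher. Slc25a47, a carrier found mainly in liver, was at 373, 343 and 307 TPM in f/f livers and 152, 136 and 114 TPM in △HSC livers (log2 fold change -1.35, SE 0.14, limma adjusted p = 8.02e-05). Slc25a51, the importer of NAD, fell from 58.7, 57.1 and 51.3 TPM to 22, 26.3 and 20.4 TPM (log2 fold change -1.28). Slc25a42, which imports coenzyme A, fell from 12.1, 11.2 and 11.6 TPM to 5.19, 5.33 and 4.3 TPM (log2 fold change -1.22). The 10 falls lay between -1.0, which the fold limit of the call fixes, and -1.35 on the log2 scale.

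The 3 calcium-regulated carriers of ATP-Mg and phosphate did not move together. Slc25a25 fell from 66.2, 62.5 and 65.3 TPM to 30.1, 33 and 27.4 TPM (log2 fold change -1.10), whereas Slc25a24 rose from 0.806, 0.327 and 0.437 TPM to 1.46, 1.01 and 2.24 TPM (log2 fold change 1.43, SE 0.36). The third, Slc25a23, was the gene nearest to the fold limit inside it, at 46.2, 43.5 and 43 TPM and 23.8, 20.2 and 22.2 TPM. Slc25a11, the oxoglutarate and malate carrier, was the nearest outside, at 28.4, 25.6 and 26.4 TPM and 14.2, 12.8 and 13.1 TPM, and both had a log2 fold change that rounds to -1.0. The call of Slc25a23 was lost without f/f replicate 1 (-0.97) or △HSC replicate 2 (-0.94). The carnitine and acylcarnitine carrier Slc25a20 was not called either, at -0.99. Slc25a4, an ADP and ATP exchanger best known from muscle, rose from 0.635, 0.572 and 0.708 TPM to 1.31, 2.17 and 1.57 TPM (log2 fold change 1.25).

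The other mitochondrial carriers were chosen for mention after their values were seen. Slc25a13, the aspartate and glutamate carrier that serves the urea cycle, fell from 42.5, 44.4 and 41 TPM to 20.1, 20.1 and 17.3 TPM (log2 fold change -1.15). Slc25a10, the dicarboxylate carrier, fell from 40.3, 39.6 and 41.9 TPM to 18, 20.7 and 15.8 TPM (log2 fold change -1.16). Both pairs of groups were separated by more than the range within either genotype. Slc25a16 and Slc25a48 fell with log2 fold changes of -1.14 and -1.18, and Slc25a27, at most 0.682 TPM in any liver, rose by 1.13. The call of Slc25a48 was lost without △HSC replicate 2 (-0.89), and that of Slc25a27 without △HSC replicate 1 (0.92).

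**Figure D4:**
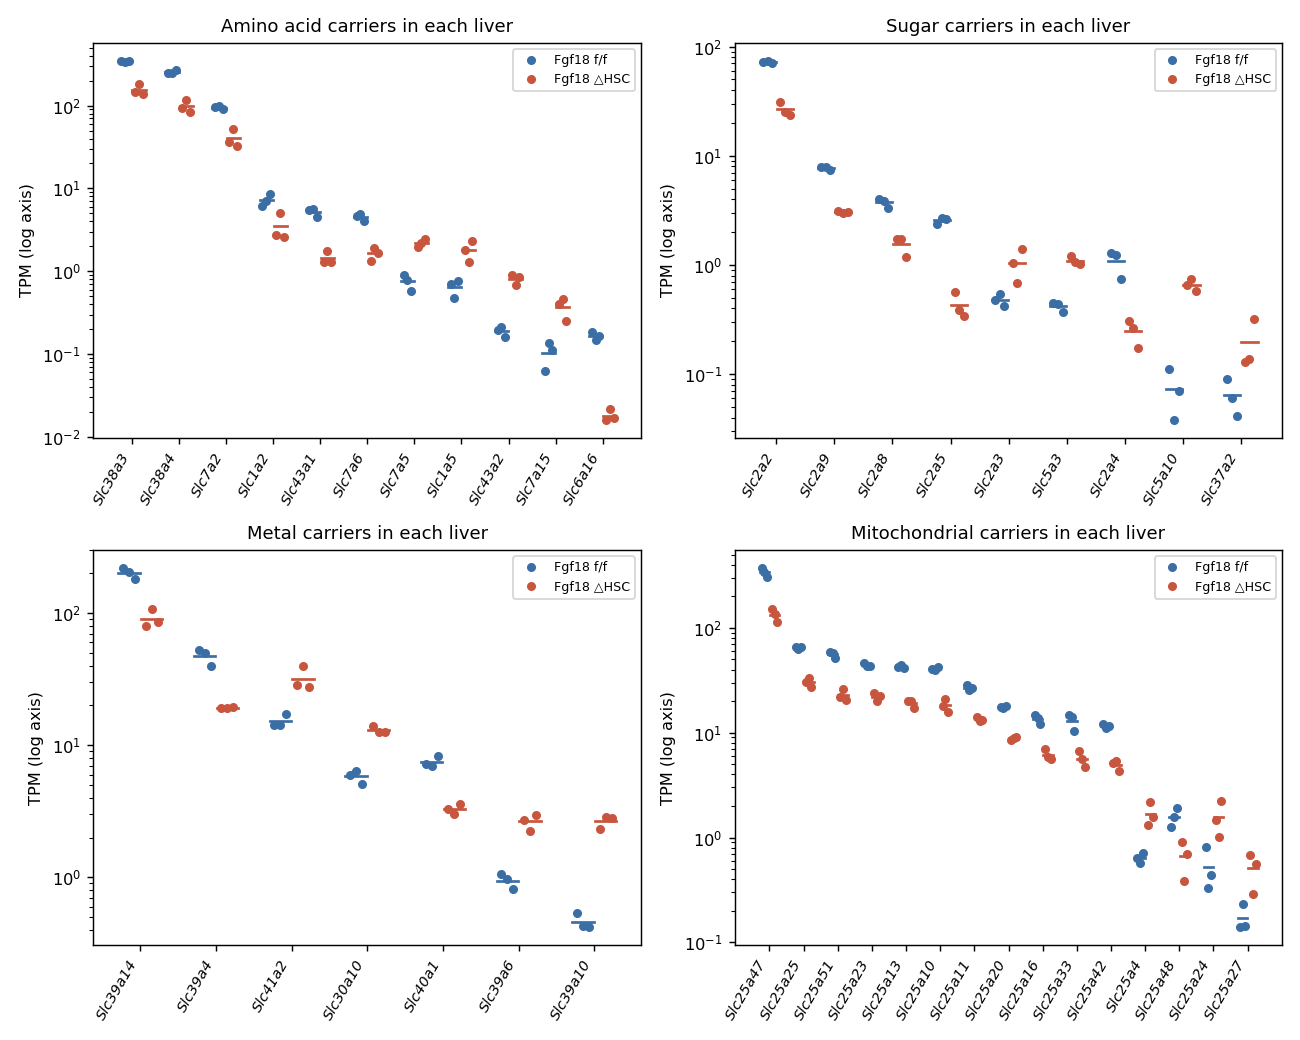
TPM (log axis) of the amino acid, sugar, metal and mitochondrial carriers in each liver, with 1 point a liver and a line at the mean of each genotype, and genes ordered by mean level from the left. In the amino acid and mitochondrial panels the abundant genes at the left are lower in the Fgf18 △HSC livers, and the genes that rose, such as Slc7a5 and Slc25a4, are at the right.

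Among the 27 other genes 10 fell, 6 rose and 11 were not called, so that fewer than the 71.7% of all listed genes were called (30.0% lower, 41.6% higher). The largest fall was in Slc9a3r1, the scaffold protein, from 197, 194 and 164 TPM to 49.2, 39.4 and 40.4 TPM (log2 fold change -2.11, SE 0.13, limma adjusted p = 1.61e-05). The 2 carriers that bring long-chain fatty acids into hepatocytes and activate fatty acids or bile acids with coenzyme A also fell. Slc27a2 went from 264, 266 and 252 TPM to 97.6, 107 and 87 TPM (log2 fold change -1.43) and Slc27a5 from 269, 269 and 263 TPM to 119, 142 and 115 TPM (log2 fold change -1.10). Slc13a5, which takes up citrate, fell from 5.21, 5.24 and 3.76 TPM to 1.22, 1.84 and 0.972 TPM (log2 fold change -1.77).

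Carriers of lactate and pyruvate changed in opposite directions. Slc16a7, which carries pyruvate and lactate with high affinity, fell from 6.06, 6.0 and 6.4 TPM to 1.67, 1.55 and 1.29 TPM (log2 fold change -1.97, SE 0.14). Slc16a3, the lactate exporter of glycolytic cells, rose from 0.471, 0.481 and 0.522 TPM to 1.67, 1.21 and 2.9 TPM (log2 fold change 1.69, SE 0.30). Slc34a2, a phosphate carrier, rose from 0.350, 0.358 and 0.377 TPM to 1.75, 0.823 and 1.07 TPM (log2 fold change 1.45), with replicate 1 the highest △HSC liver.

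The rest of the called genes in this group were chosen for mention after their values were seen. Slc20a1, a phosphate carrier, Slc35d1, a nucleotide sugar carrier, Slc12a7, a potassium and chloride cotransporter, and Slc46a3, a lysosomal carrier, fell with log2 fold changes of -1.16, -1.05, -1.29 and -1.33. Slc26a2, a sulfate carrier, Slc27a3, Slc8a2, a sodium and calcium exchanger, and Slc23a3 rose by 1.03, 1.32, 1.18 and 1.06. All 4 that rose were under 1 TPM in every liver, and Slc8a2 had 1 to 7 reads in the f/f livers and 12 to 35 in the △HSC livers. Of these 4, Slc8a2 was not called without △HSC replicate 1 (0.91), Slc26a2 without f/f replicate 3 (0.88) or △HSC replicate 2 (0.98), and Slc23a3 without f/f replicate 1 (0.92), f/f replicate 2 (0.97) or △HSC replicate 2 (0.88).

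The 11 genes not called in this group were mostly at low levels. Slc23a2, the ascorbate carrier, was the exception at 9.57, 9.05 and 8.87 TPM against 4.14, 4.75 and 4.79 TPM (log2 fold change -0.99). The kidney salt carriers Slc12a1 and Slc12a3, the neuronal Slc12a5 and Slc17a7, the peptide carrier Slc15a1 and the anion exchanger Slc26a7 had log2 fold changes of 0.49, 0.44, 0.75, 0.54, 0.69 and 0.72. None of the 6 was above 0.298 TPM in any liver, and Slc12a1 had 0 to 1 reads in the f/f livers and 3 to 9 in the △HSC livers. The last 4 were Slc16a9 at 0.93, Slc29a3 at 0.99, Slc18a1 at -0.93 and Slc24a1 at -0.86 on the same scale.

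Slc16a12 and Slc25a33 are shown as genes that fell and hold both an E-box and a core of the antioxidant response element in windows whose RefSeq starts lie 39 and 10 bases from the GENCODE start. Slc43a1 and Slc6a16 also held both motifs, in windows 1473 and 332 bases from the GENCODE start, and are not printed. Slc16a12, a creatine carrier chosen for mention after its values were seen, fell from 15.5, 15.8 and 14.4 TPM to 6.06, 6.11 and 5.84 TPM. Slc25a33, a mitochondrial carrier of pyrimidine nucleotides, fell from 14.6, 14 and 10.5 TPM to 6.62, 5.55 and 4.71 TPM (log2 fold change -1.19). Their windows, again of 250 bases on the minus strand from RefSeq on GRCm38.p6, lie at chr19:34747329-34747578 and chr4:149774268-149774517. Capitals mark the E-box CACGTG and the core TGACNNNGC, read on either strand. They begin 240 and 206 bases before the start in Slc16a12, and 8 and 32 bases before it in Slc25a33.
Slc16a12: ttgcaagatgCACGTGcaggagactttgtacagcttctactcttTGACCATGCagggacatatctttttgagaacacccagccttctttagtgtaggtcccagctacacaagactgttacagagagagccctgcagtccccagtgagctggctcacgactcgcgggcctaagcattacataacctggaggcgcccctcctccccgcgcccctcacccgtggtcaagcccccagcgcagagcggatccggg
Slc25a33: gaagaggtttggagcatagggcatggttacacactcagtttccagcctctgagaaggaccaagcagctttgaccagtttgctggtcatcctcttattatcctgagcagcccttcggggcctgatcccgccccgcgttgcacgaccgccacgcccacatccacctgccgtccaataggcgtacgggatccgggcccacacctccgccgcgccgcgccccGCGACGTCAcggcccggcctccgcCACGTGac

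Promoter windows were found for 62 of the 83 genes, and the matches did not overlap each other. Some genes had more than 1 window, and a gene was counted when any of its windows held a match. Some of these windows lie far from the GENCODE start. The E-box window of Slc12a7 was 30603 bases away. That of Slc12a5, the only gene with higher values that held an E-box, was 7186 bases away. The E-box stood in 7 of 39 genes with lower values (17.9%), 1 of 23 with higher values (4.35%) and 6.86% of all 27025 genes with a window. The antioxidant response element core stood in 10 of the 39 (25.6%), 1 of the 23 (4.35%) and 11.5% of all genes. The HNF4A-type motif CAAAGTCCA stood in none of the 62, against 0.451% of all genes, and the HNF1-type motif in Slc10a2 alone of the 62, against 0.440% of all. A match is a run of letters and not a site, and these shares were not tested.

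Summed over its genes, every class was lower in the △HSC livers. The bile acid and organic ion carriers summed to 704 to 725 TPM in the f/f livers and 275 to 307 TPM in the △HSC livers. The amino acid carriers summed to 702 to 730 TPM and 267 to 366 TPM. The mitochondrial carriers summed to 631 to 717 TPM and 259 to 312 TPM. The metal carriers, in which more genes rose than fell, summed to 251 to 301 TPM and 150 to 187 TPM, and Slc39a14 alone held the larger part of each sum. The sugar carriers, at 85.8 to 91.0 TPM and 31.7 to 39.8 TPM, and the others, at 789 to 850 TPM and 295 to 342 TPM, were lower too. If the deposited values are TPM, which the table does not state, all listed genes together took 7.14% to 7.93% of the total in the f/f livers and 3.89% to 3.99% in the △HSC livers, so a lower sum was common to the whole table.

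**Figure D5:**
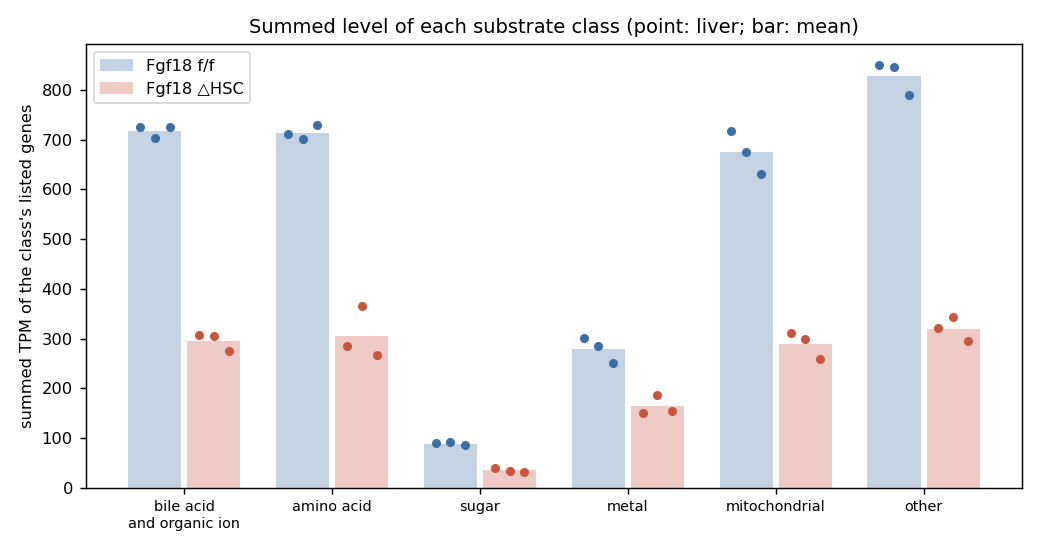
Summed TPM of the listed genes of each substrate class, with a bar at the mean of each genotype (axis from 0) and 1 point a liver. The Fgf18 △HSC points lie below all Fgf18 f/f points in each of the 6 classes, with amino acid carriers at 267 to 366 TPM against 702 to 730 TPM.

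Within a genotype, the livers were close for most of these genes. The median SD on the log2 scale was 0.14 among f/f livers and 0.18 among △HSC livers, against 0.19 and 0.25 over all listed genes. These genes also had a higher median level, 3.11 against 0.749 TPM, and SDs were not compared at like levels. The SD was larger among △HSC livers for 57 of 83 genes (68.7%, against 63.9% of all listed genes). The △HSC replicate 3 liver was the lowest of its group for 41 of 83 genes (49.4%, against 29.4% of all listed genes that could be ordered), and for 11 of the 14 bile acid and organic ion carriers. The f/f replicate 3 liver was likewise the lowest of its group for 41 of 82 genes without ties (50%, against 36.7%). Leaving out each liver in turn gave 21 to 24 higher and 42 to 46 lower calls.

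Of the 83 genes, 13 neighbouring pairs lay under 1 Mb apart, and values differed in the same direction in 8 pairs and in opposite directions in 5. Besides the pairs given above, Slc47a1 and Slc5a10 on chromosome 11, with 294435 bases between them, had values of opposite direction. The same was so for Slc25a10 and Slc16a3 on chromosome 11, 449292 bases apart, and for Slc17a7 and Slc6a16 on chromosome 7, 64942 bases apart. Of all 83 genes 33 had higher and 50 lower values, and the count of pairs was not tested.

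Markers of liver cell types moved in both directions. Of 8 hepatocyte markers only Cyp2e1 was listed, which fell from 1744, 1659.6 and 1955 TPM to 461, 686 and 559.6 TPM. The markers that were listed fell in 3 of 11 pericentral and 3 of 11 periportal hepatocyte genes. By contrast, 10 of 13 stellate cell markers were listed, 8 of them called higher (41.6% of all listed genes were, and 811 of the 1777 at or under 1 TPM), with a summed level of 7.37 to 9.73 TPM in the f/f livers and 20.8 to 27.9 TPM in the △HSC livers. Kupffer cell markers (3 of 9 listed, 2 called higher) summed to 8.37 to 10.2 TPM and 22.7 to 32.0 TPM, and sinusoidal endothelial markers (3 of 9, all called higher) to 11.9 to 14.4 TPM and 26.5 to 38.8 TPM. Erythroid markers (4 of 6, all called higher) summed to 70.9 to 116 TPM and 396 to 539 TPM. Of 7 cholangiocyte markers 5 were listed, with 2 called higher and 1 lower, and of 10 neutrophil markers 5 were listed, with 3 called higher and 2 lower. No T or B cell marker of 7 was listed. In whole tissue, fewer cells of a type and less RNA per cell cannot be told apart, and the part of cell makeup in the values of the solute carrier genes was not tested.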

How the data were processed

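RNA of 6 livers was measured by stranded mRNA-seq, 3 livers a genotype. According to the study's methods and the submitters' processing notes, the authors trimmed reads with cutadapt 2.5, aligned them to GRCm38 (mm10) with HISAT2 2.1.0, counted them per gene with featureCounts 1.6.3 and compared the groups with DESeq2. The strand setting of the counting and the annotation release were not given in the sources used here. The values the authors deposited were taken as TPM, reads divided by gene length and scaled per library, although the table does not name the unit. A value times the joined exon length of the gene in GENCODE M21 was a whole multiple of 1 step per liver (tolerance 0.02 reads, values under 5000 reads) in 92.2% to 93.1% of values. Such steps show division by length but are the same in FPKM, so the choice of TPM is an assumption that sets the scale of each liver. The authors' columns of log2 fold changes and p-values were read only to learn the filter: every row had an absolute log2 fold change of at least 1 and an unadjusted p under 0.05. Total library sizes were not used, so counting intervals are not given, and the reads recovered for 79 of the 83 genes show the depth.

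From these values, log2(TPM + 0.1) was compared over all 3201 genes by the linear models of limma 3.58.1 (lmFit, eBayes with a mean-variance trend) in R 4.3.3, with no filter and no block, and p-values were adjusted by Benjamini and Hochberg's method. Fold changes are on that scale, which understates the change of genes at low levels. Tables and figures were made in Python 3.11.15. The fit was also run on simulated reads in which a small part of the genes was changed. The deposited genes were all selected for differing, so that run does not measure the error of the calls given here. The labels do not say that the livers of a group came from separate animals. The study gives n = 3 for its RNA-seq and describes its n as biologically independent experiments. The p-values measure only the spread between these samples. With 3 against 3 livers an exact permutation test cannot go below p = 0.1 (two-sided), and none is printed.

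The members, substrate classes and gene lists were chosen with earlier results of these data known. Named genes were, in each class, up to 4 called in each direction with the largest change and a mean of at least 1 TPM, the 3 most abundant, all of the Slc10, Slc22, Slc47, Slc51 and Slco families, those nearest the fold limit and those not called, 64 in all. Motifs and neighbouring pairs were chosen after the values were seen. Promoter windows came from RefSeq (GRCm38.p6).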

Additional observations from a re-analysis of the deposited data

How the results depend on the processing

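No member tested changed direction under another pseudocount, scaling, filter, model or block or without any liver, with 79 members tested by limma-voom and 56 under the filter. The groups of livers did not overlap for any of the 83 genes, so most of these settings could not have reversed a sign. Only the rescaling and limma-voom could have done so. The counts over the 83 genes were 23 higher and 42 lower. With a pseudocount of 1 they were 6 and 32, with 0.01 they were 33 and 46, with a mean of at least 1 TPM 12 and 38 (56 genes tested), with rescaled livers 2 and 50, with limma-voom on recovered reads 32 and 43 (79 genes), without a mean-variance trend 23 and 41, among protein-coding genes alone 23 and 42, and with no fold limit 33 and 50. All 3201 genes gave 1333 higher and 961 lower, 266 and 566 with a pseudocount of 1, 1995 and 1048 with 0.01, and 281 and 1115 after rescaling. Over all genes the filter gave 522 higher and 787 lower of 1424 tested, and limma-voom 1890 and 958 of 2940. Protein-coding genes alone gave 986 and 710 of 2441, no trend 1330 and 960, and no fold limit 2005 and 1108.

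Calls higher by class, in the order amino acid, sugar, mitochondrial and other, were 0, 0, 0 and 0 with a pseudocount of 1, and 0, 1, 0 and 0 after rescaling, which left 0 bile acid and organic ion carriers and 1 metal carrier. A mean of at least 1 TPM left 2 amino acid, 0 sugar and 1 other gene. A pseudocount of 0.01, voom or no fold limit gave 4 sugar and 14 other genes, and a pseudocount of 1 gave 3 sugar genes lower. Rescaling moved the median log2 fold change to -2.02 over all members, -2.11 for amino acid, -2.24 for sugar, -2.01 for bile acid and organic ion, 0.028 for metal, -2.13 for mitochondrial and 0.11 for other genes. A pseudocount of 1 gave -0.92, -0.74, -0.84 and 0.058 for amino acid, sugar, bile acid and organic ion, and other genes. The other genes had 1.13 with 0.01, 1.17 with voom, and -1.31, of opposite sign, with a mean of at least 1 TPM, which leaves out low genes. That filter gave -1.29 for the bile acid and organic ion carriers.

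Leaving out each liver in turn gave 21 to 24 higher and 42 to 46 lower calls, and by class 4 to 4 and 6 to 7 for amino acid, 2 to 3 and 5 to 5 for sugar, 4 to 4 and 5 to 8 for bile acid and organic ion, 3 to 4 and 3 to 3 for metal, 2 to 3 and 8 to 12 for mitochondrial, and 4 to 7 and 10 to 12 for other genes. Medians ranged from -1.04 to -1.01 over all members, -1.29 to -1.08 for amino acid, -1.32 to -1.07 for sugar, -1.16 to -0.90 for bile acid and organic ion, 0.89 to 1.16 for metal, -1.16 to -1.07 for mitochondrial, and 0.36 to 0.51 for other genes, and the cause of each shift was not tested. With the replicate number as a block, 23 were higher and 42 lower (2300 of 3201 genes called, against 2294), and no call of a named gene changed. Livers of the same number shared little beyond it, with correlations of 0.0574, 0.00597 and 0.0307, and f/f replicate 2 correlated best with △HSC replicate 1. A pseudocount of 1 kept 38 of the 65 calls, and among named genes that fell it ended those of Slc40a1 (-0.98), Slc2a8 (-0.90), Slc2a4 (-0.74), Slc22a3 (-0.51), Slc25a23 (-0.98) and Slc51b (-0.74). The call of Slc51b was also lost with a pseudocount of 0.01 (limma adjusted p = 0.05003), a mean of at least 1 TPM (0.0535) and no trend (0.0519).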
